A study of Mus musculus with 8 samples.

Results

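The tongue muscle, epithelium and connective tissue of wild-type (WT) mice were described from 4 bulk RNA libraries, out of 8 in the series. The 4 libraries were chosen by their label, as the columns WT 1 to WT 4 of the deposited count table, and no measured value entered the choice. Per the labels, each came from a female mouse that was 12 months old and did not carry the A17 allele of Pabpn1, with RNA isolated from 40 cryosections of its median region. The other 4 libraries, from A17/+ mice (a model of oculopharyngeal muscular dystrophy), were not used, and no genotype comparison was made. Strain was not given in the sources used here. A cryosection of tongue holds muscle, lining epithelium, vessels, nerve and gland together, and in bulk RNA fewer cells of a type and less RNA per cell cannot be told apart.

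The tongue is built of interlaced striated muscle under a keratinised, papilla-bearing epithelium. Its muscle fibres contract as myosin heavy chains pull on actin filaments under the control of troponin and calcium, while titin and nebulin set the length of the filaments, and mouse tongue is known as a mostly fast-fibred muscle. The epithelium renews from basal cells that make Krt5, Krt14 and Krt15, and its upper layers make Krt4, Krt13 and papilla keratins before they form a cornified envelope.

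Defining genes of striated muscle and tongue epithelium, such as Myh4 and Krt4, were among the most abundant genes of every library, as the tissue label has it. Some markers of other cell types had no counts, though other members of the same lists lay well above the limit of detection. The taste genes Tas1r1, Tas1r2, Otop1, Entpd2 and Krt20, the fat genes Cfd and Retn, the lymphocyte gene Cd4, the smooth muscle gene Cnn1 and the slow light chain gene Myl2 had 0 counts in all 4 libraries. Of the same smooth muscle list Myh11 had 392 CPM (counts per 1000000 counts of the library), and of the fat list Dgat2 had 284 and Lpl 210. A count of 0 allows up to 3 counts, which is 6.45 CPM in WT 1, 10.1 in WT 2, 9.54 in WT 3 and 14.6 in WT 4, by counting error only.

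WT 1 stood apart from the other 3 libraries and is named wherever a value rests on it. It was the deepest, with 465014 molecules (UMI counts) against 297294 in WT 2, 314493 in WT 3 and 205696 in WT 4. Genes with at least 1 count numbered 14164, 12993, 12639 and 11339 in WT 1 to 4 (12784 ± 1163, SD, n = 4). Thinned to the smallest library they numbered 11812, 11945, 11498 and 11339, so that most of the difference followed depth. Nearly all counts of salivary gland genes, described below, were in WT 1, which also had more mitochondrial ribosomal RNA than the other libraries. Across the 6507 genes with a mean of 5 or more counts per library, Pearson's r of log2 CPM between libraries ran from 0.805 (WT 1 with WT 4) to 0.882 (WT 2 with WT 3). Genes are not independent replicates, and the shallowest library, WT 4, was in the lowest value.

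By counts, muscle genes were the largest of the described classes. Per kilobase of transcript, mitochondrial transcripts were, with 16.2% against 9.58% for muscle, and WT 4 (10.6%) and not WT 1 (9.65%) was the highest library for muscle. The 143 muscle genes in the table took 15.3%, 12.9%, 14.3% and 14.8% of all counts in WT 1 to 4 (14.3% ± 1.02, SD, n = 4). Transcripts of the mitochondrial genome took 6.43%, 4.17%, 5.23% and 4.85% (5.17% ± 0.949), and 89 epithelial genes took 4.22%, 5.42%, 5.04% and 4.91% (4.90% ± 0.503). By counts, WT 1 was the highest library for muscle and mitochondria and the lowest for epithelium, whereas WT 2 was the lowest for muscle and mitochondria and the highest for epithelium. The epithelial counts per muscle count were accordingly 0.275 in WT 1, 0.419 in WT 2, 0.354 in WT 3 and 0.331 in WT 4.

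Smaller classes differed in how tightly they were held. Stromal genes (130 in the table) took 0.918%, 0.898%, 0.851% and 0.965% of the counts (0.908% ± 0.0469, SD, n = 4). Long noncoding RNA genes took 1.85%, 1.86%, 2.34% and 2.26% (2.08% ± 0.255), lower in WT 1 and WT 2 than in WT 3 and WT 4, whereas per kilobase WT 2 was the highest at 2.17%. Cytosolic ribosomal protein genes took 0.715%, 0.731%, 0.497% and 0.390% (0.583% ± 0.167), higher in WT 1 and WT 2. Nuclear genes of oxidative phosphorylation took 0.951% ± 0.0838. Without WT 1 the class means were 14.007% for muscle, 5.13% for epithelium, 4.75% for mitochondria and 0.905% for stroma. Leaving out 1 of 4 libraries cannot move a mean by 1 SD, so these shifts are not judged against the SD.

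**Figure D1:**
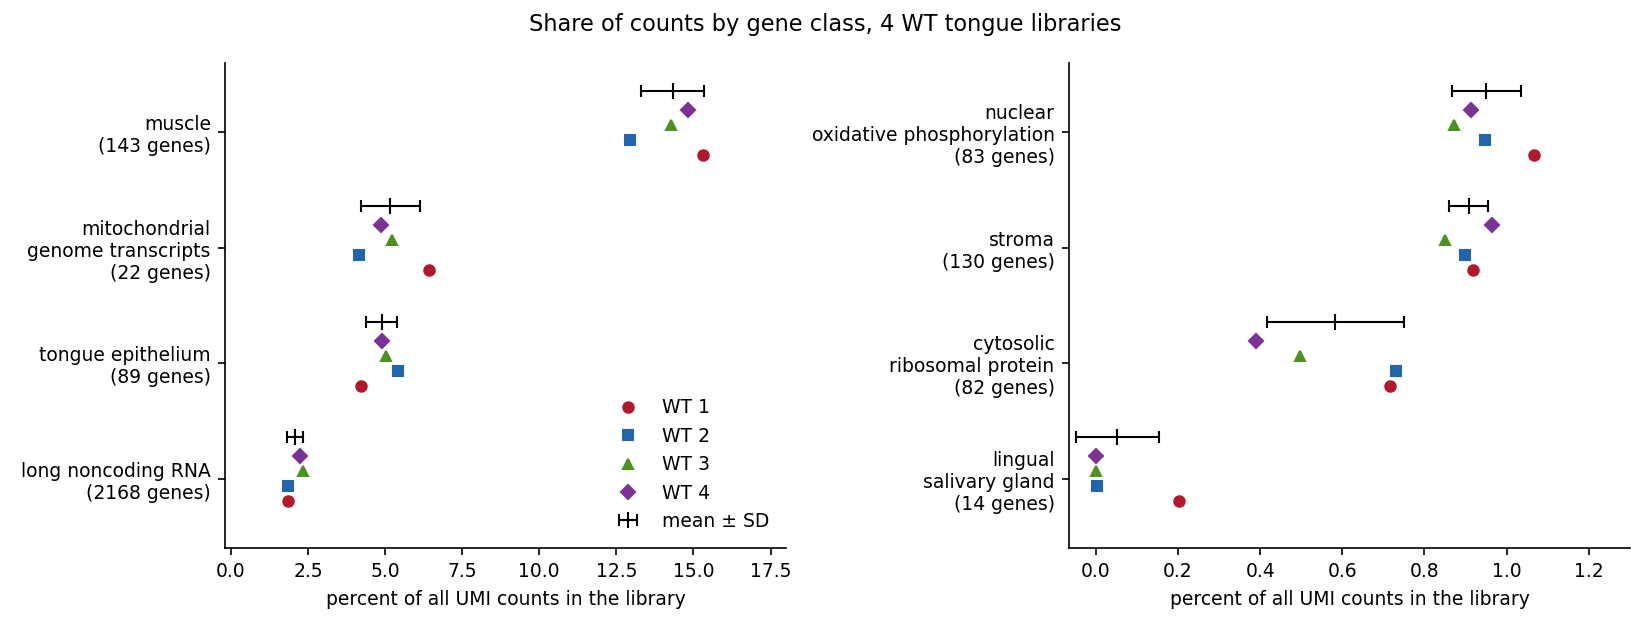
Share of all UMI counts (x axis, percent) taken by 8 gene classes (y axis, genes in the table in brackets) in WT 1 to WT 4 (coloured symbols), with the mean and SD of the 4 libraries in black; the SD bar of the salivary class reaches below 0. Muscle lies between 12.9% and 15.3%, epithelium between 4.22% and 5.42%, and the salivary genes lie at 0.203% in WT 1 and near 0 in the other libraries.

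Few genes held much of the RNA. The 10 most abundant genes took 30.6%, 25.2%, 29.96% and 31.7% of the counts (29.4% ± 2.90, SD, n = 4), the top 100 took 43.2%, and the top 1000 took 69.1%. Counts were spread most widely in WT 2, where 312 genes were needed to reach 50% of the counts, against 207 in WT 1, 197 in WT 3 and 157 in WT 4. Only 57 genes reached 1000 CPM in every library and 5 reached 10000 CPM. The most abundant identifier, ENSMUSG00000119584, took 13.4%, 11.3%, 13.1% and 14.9% of the counts. It has no entry in the annotation used here and is given by its identifier only.

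Giant sarcomere proteins, mitochondrial ribosomal RNA, fast myosin and an epithelial envelope gene followed. Ttn (titin, chr2:76703980-76982547, minus strand, GRCm38), which spans the sarcomere as a spring, stood at 66170, 54313, 58561 and 62607 CPM in WT 1 to 4. Tchh (trichohyalin, chr3:93442330-93449077), a structural protein of cornifying cells in hair follicles and tongue papillae, stood at 9150, 13179, 14992 and 16447 CPM, lowest in WT 1. On the scale of CPM per kilobase of the longest transcript, Tnnc2 (fast troponin C) led the nuclear protein-coding genes with 3284, followed by Myh4 with 2899 and Tchh with 2308, while the long Ttn had 566 and Neb 406.

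**Figure D2:**
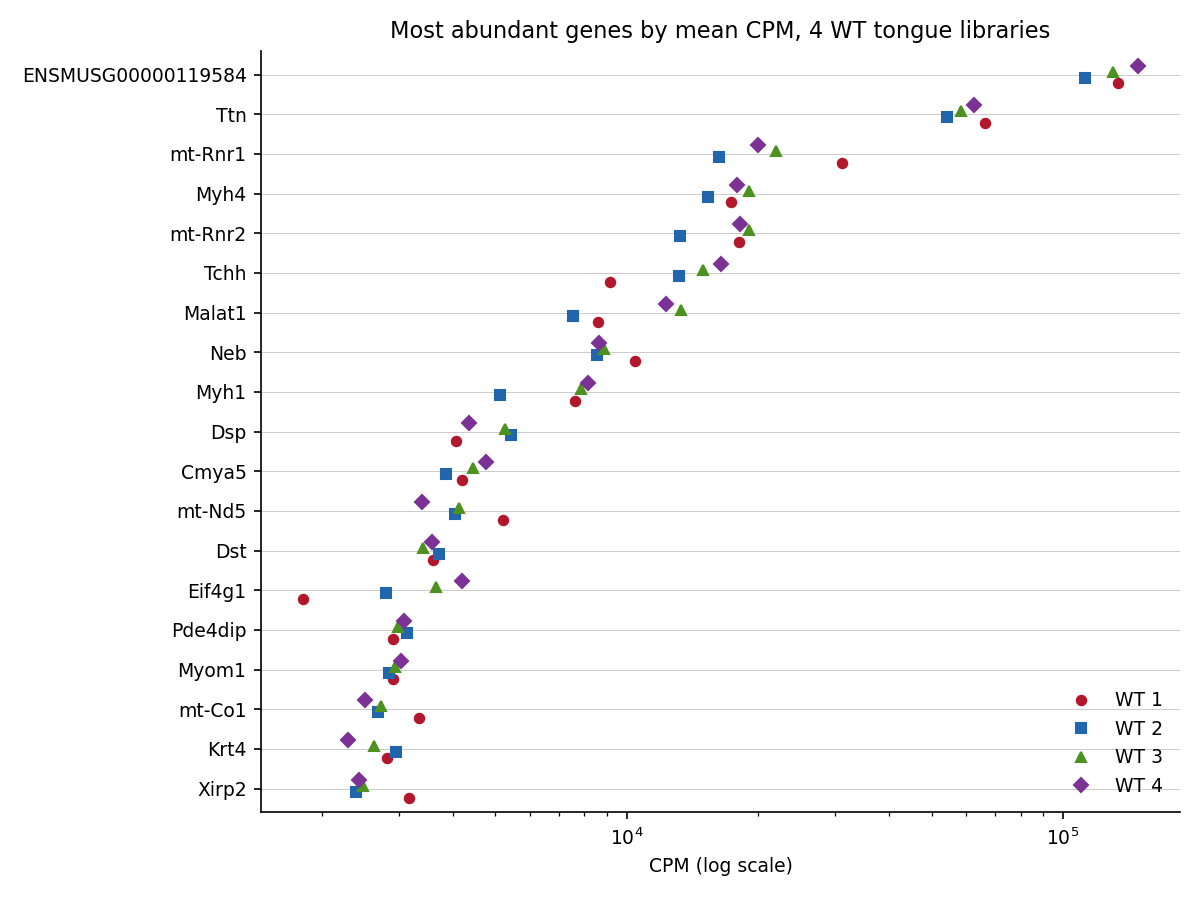
Of the 20 genes with the highest mean CPM, 19 are shown (y axis) with their CPM in WT 1 to WT 4 (x axis, log scale, 1 symbol per library). WT 1 lies to the left of the other libraries for Tchh and Eif4g1 and to the right for mt-Rnr1, Neb, mt-Nd5 and Xirp2, whereas the 4 symbols of Dst, Pde4dip and Myom1 nearly coincide.

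Whether a gene differed between the 4 libraries by more than counting error was tested with a Pearson chi-square of its counts against the library totals, with Benjamini-Hochberg adjustment over all 6507 genes with a mean of 5 or more counts. A gene with an adjusted p under 0.05 is said below to have varied. The statistic per degree of freedom is called the spread ratio, and it is about 1 when counting error is the only source of spread. In all, 817 genes varied (12.6% of those tested). Without WT 1, 203 of 5918 varied (3.43%). Leaving out WT 1, the deepest library, also lowers the power of the test, here and in each list below. Leaving out WT 2, WT 3 or WT 4 gave 675, 678 or 665 genes, and thinning all 4 libraries to the smallest gave 392 of 5015. How much of the drop without WT 1 followed its depth was not tested. The power of the test grows with the counts: 3.09% of genes with a mean from 5 to under 10 counts varied, 8.49% from 10 to under 30, 24.3% from 30 to under 100 and 56.1% at 100 or more. Shares of called genes in a list are therefore read beside its levels, and a call says that libraries differed, not why.

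Of the tested muscle genes 46 of 113 varied (40.7%, against 12.6% of all genes). Of the 113, 42 had a mean of 100 or more counts, where 56.1% of all genes varied, and 29 had 30 to under 100 (24.3%). A further 30 had 10 to under 30 counts (8.49%) and 12 had 5 to under 10 (3.09%). Without WT 1, 15 of 107 varied, against 3.43% of all genes and 19.9% of those with 100 or more counts. Among the myosin heavy chains, the motors that set fibre type, Myh4 (the fastest, type IIB) had 17363, 15396, 19069 and 17934 CPM, lowest in WT 2. Its share of the heavy chain counts was 68.3%, 73.3%, 69.3% and 67.5% (69.6% ± 2.57, SD, n = 4). Myh1 (type IIX) had 7606, 5120, 7870 and 8158 CPM and 28.4% ± 2.82 of the heavy chain counts, again lowest in WT 2.

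The remaining heavy chains were rare. Myh14, a nonmuscle chain made in many tissues, had 187, 340, 296 and 287 CPM (1.13% of the set), and Myh2 (type IIA) had 241, 121, 245 and 151 CPM (0.745%). The perinatal Myh8 had 8.60, 10.1, 25.4 and 43.8 CPM, at or near the limit of detection. Counts in WT 1 to 4 were 0, 2, 1 and 0 for Myh6, 0, 2, 0 and 0 for the embryonic Myh3, 0, 1, 1 and 0 for the extraocular Myh13, and 0 throughout for Myh15. Myh7 and Myh7b were not analysed here. Myh4, Myh1, Myh2 and Myh14 varied, with spread ratios of 40.8, 78.6, 6.28 and 6.13, and without WT 1 Myh14 no longer passed (adjusted p = 0.785, chi-square with Benjamini-Hochberg adjustment).

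The promoters of the leading heavy chains are printed because these neighbours on chromosome 11 carried nearly all heavy chain counts. Each is the 300 bases from 250 before to 50 after the RefSeq start (GRCm38.p6, plus strand, 5′ to 3′). Capitals mark TATAAA and the E-box CANNTG, the motif bound by myogenic helix-loop-helix factors, on the printed strand.
Myh4, chr11:67237562-67237861: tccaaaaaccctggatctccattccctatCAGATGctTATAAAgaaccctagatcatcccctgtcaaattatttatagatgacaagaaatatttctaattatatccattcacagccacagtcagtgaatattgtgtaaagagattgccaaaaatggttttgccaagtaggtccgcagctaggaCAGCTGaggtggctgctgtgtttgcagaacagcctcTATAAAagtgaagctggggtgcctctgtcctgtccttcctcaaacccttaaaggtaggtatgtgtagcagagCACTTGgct
Myh1, chr11:67199852-67200151: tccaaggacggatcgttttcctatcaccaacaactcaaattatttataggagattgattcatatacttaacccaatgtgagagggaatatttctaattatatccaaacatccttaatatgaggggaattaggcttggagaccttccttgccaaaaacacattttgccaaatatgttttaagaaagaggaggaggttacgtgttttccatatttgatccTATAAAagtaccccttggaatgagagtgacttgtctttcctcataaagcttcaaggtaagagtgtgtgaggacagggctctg
Counting both strands, the Myh4 window held 3 matches to TATAAA and 3 to CANNTG, and the Myh1 window held 2 and 0. Among 32851 RefSeq promoter windows of this length, 13.6% held TATAAA and 72.3% held CANNTG. These matches describe the letters only.

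Fast forms led the troponins. Tnnc2, the calcium sensor of fast troponin, had 2735, 1863, 2156 and 2440 CPM, Tnni2 (fast troponin I) had 2035 ± 221 CPM, and Tnnt3 (fast troponin T) had 1383, 636, 1142 and 1050 CPM (SD, n = 4). All 3 varied, and Tnnt3 was lowest in WT 2. Their slow counterparts Tnnt1, at 22.6 ± 1.83 CPM, and Tnni1, with 3 counts in WT 1 and 0 elsewhere, made up 0.490%, 0.455%, 0.429% and 0.414% of the troponin counts (0.447% ± 0.0334). This share rests on 1 gene for most of its counts, and slow Tnnc1 was not analysed here. Acta1, the skeletal actin, had 1260, 1201, 1030 and 958 CPM, and Tpm2 (beta tropomyosin) had 1261 ± 153. Lmod2, which nucleates actin filaments, had 1148, 1295, 1698 and 1862 CPM, and it varied with and without WT 1.

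Mylpf, the fast regulatory light chain, had 1064, 1201, 1148 and 1590 CPM, highest in WT 4. Myl1, the fast essential light chain, had 411 ± 43.2 CPM (SD, n = 4), and it did not pass the test. Mybpc1, the slow form of myosin binding protein C, had 1606, 1773, 1514 and 1585 CPM and did not pass either, while the fast form Mybpc2 had 93.1. Mylk4, a kinase of the light chain family, had 640 ± 123. Per kilobase, the levels were 1633 for Mylpf, 413 for Mybpc1, 380 for Myl1 and 115 for Mylk4.

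Scaffold genes of the sarcomere were abundant and partly offset in WT 1. Neb (nebulin, the ruler of the thin filament) had 10428, 8567, 8878 and 8649 CPM. WT 1 was the highest, and the remaining libraries did not differ by the test (adjusted p = 0.737, chi-square with Benjamini-Hochberg adjustment). Myom1 (myomesin, an M-band crosslinker) had 2903, 2849, 2948 and 3043 CPM, with a spread ratio of 0.567. In this list 5 of 7 tested genes varied with WT 1 and 1 of 7 without it, which was Ttn. With WT 1 the share was 71.4%, against 56.1% of all genes at the list's median level (100 or more counts).

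Among Z-disc and M-band genes, Xirp2, an actin-binding repeat protein, had 3172, 2392, 2480 and 2426 CPM, highest in WT 1, and Cmya5 had 4315 ± 378. Myot (myotilin) had 1694 ± 218 CPM, Fhl1 1289 ± 139 and Actn2 469 ± 81.2 (SD, n = 4). Of the tested Z-disc and M-band genes 7 of 19 varied, 5 of them with WT 1 as the farthest library, and 2 of 18 without WT 1. The 7 were 36.8%, against 24.3% of all genes at the list's median level (30 to under 100 counts). Of the dystrophin complex and its partners 3 of 13 varied, 1 of them with WT 1 farthest. The 3 were 23.1%, against 8.49% of all genes at that list's median level (10 to under 30 counts). Without WT 1, 0 of 11 passed the adjusted chi-square or the deviance test, and 3 had an unadjusted p under 0.05. Utrn (utrophin) had 964 ± 106 CPM and Dmd (dystrophin, which links actin to the membrane) 972, 858, 680 and 812.

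Ryr1, the calcium release channel, had 2286, 2392, 2646 and 2834 CPM, highest in WT 4. Atp2a1, the fast calcium pump, had 2327, 1625, 1673 and 1478 CPM, highest in WT 1, against 94.0 ± 39.3 for the slow pump Atp2a2. Casq1, the fast calcium buffer of the reticulum, had 331 ± 80.3 CPM and the slow Casq2 had 24.3 ± 10.96 (SD, n = 4). Pvalb, the soluble calcium buffer of fast fibres in other mouse muscles, had 4, 0, 1 and 1 counts in WT 1 to 4. In this list 7 of 18 tested genes varied, 3 of them with WT 1 farthest. The share was 38.9%, against 24.3% of all genes at the list's median level (30 to under 100 counts). Without WT 1, 0 of 18 passed the adjusted chi-square or the deviance test, and 6 had an unadjusted p under 0.05.

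Ckm, the muscle creatine kinase, had 1290, 1366, 1189 and 1458 CPM, with a spread ratio of 2.60 that did not pass. Aldoa, the aldolase of glycolysis, had 1338, 1537, 1641 and 2076 CPM, lowest in WT 1 and highest in WT 4. Gys1 (glycogen synthase) had 503 ± 69.8 CPM, Pfkm 365 ± 79.4 and Gapdh 143 ± 22.9 (SD, n = 4). Of glycolysis and glycogen genes 6 of 18 varied, and 1 of 18 without WT 1. With WT 1 included the share was 33.3%, against 24.3% of all genes at the list's median level (30 to under 100 counts). Levels of regulators ranged widely, with Mef2c at 414 ± 48.1 CPM and Myf6 at 45.9 ± 12.4. The satellite cell genes had 0, 1, 2 and 0 counts (Pax7) and 1, 0, 0 and 0 (Myf5). Mef2d, a muscle transcription factor, had 183 CPM in WT 1 and 309, 388 and 360 in the others. Junction genes had a median of 4.56 CPM, against 16.9 for the list of regulators and satellite cell genes. Lrp4, a receptor of the neuromuscular junction that is also made in other tissues, led the junction genes with 61.3 ± 17.998 CPM.

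The epithelium was led by its upper layers. Of 65 tested epithelial genes 35 varied (53.8%, against 12.6% of all genes). Of the 65, 26 had a mean of 100 or more counts, where 56.1% of all genes varied, and 21 had 30 to under 100 (24.3%). A further 10 had 10 to under 30 counts (8.49%) and 8 had 5 to under 10 (3.09%). Without WT 1, 19 of 61 varied, against 3.43% of all genes and 19.9% of those with 100 or more counts. Keratins of the upper layers took 85.8%, 83.1%, 83.6% and 82.0% of the keratin counts (83.6% ± 1.61, SD, n = 4), against Krt5, Krt14 and Krt15 of the basal layer. Krt4 had 2826, 2953, 2630 and 2300 CPM, and Krt13, its partner in the lining of mouth and oesophagus, had 2858, 2459, 2407 and 1867, lowest in WT 4. Krt76, a keratin of oral masticatory epithelium, had 1587, 2445, 1930 and 2115 CPM, lowest in WT 1 and highest in WT 2.

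Stress and papilla keratins differed in spread. Krt6a, whose near copy Krt6b can share its reads, had 639, 740, 677 and 603 CPM with a spread ratio of 1.42. Krt16, its usual partner, had 419, 673, 598 and 549 CPM, lowest in WT 1. Krt84, a hard keratin of the papillae, had 323, 515, 216 and 243 CPM, highest in WT 2, and it varied with and without WT 1. Per kilobase, Krt13 had 1450, Krt4 1255, Krt76 873, Krt14 771, Krt6a 280 and Krt5 117. Krt1, a keratin of interfollicular skin, had 4, 1, 4 and 0 counts.

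**Figure D3:**
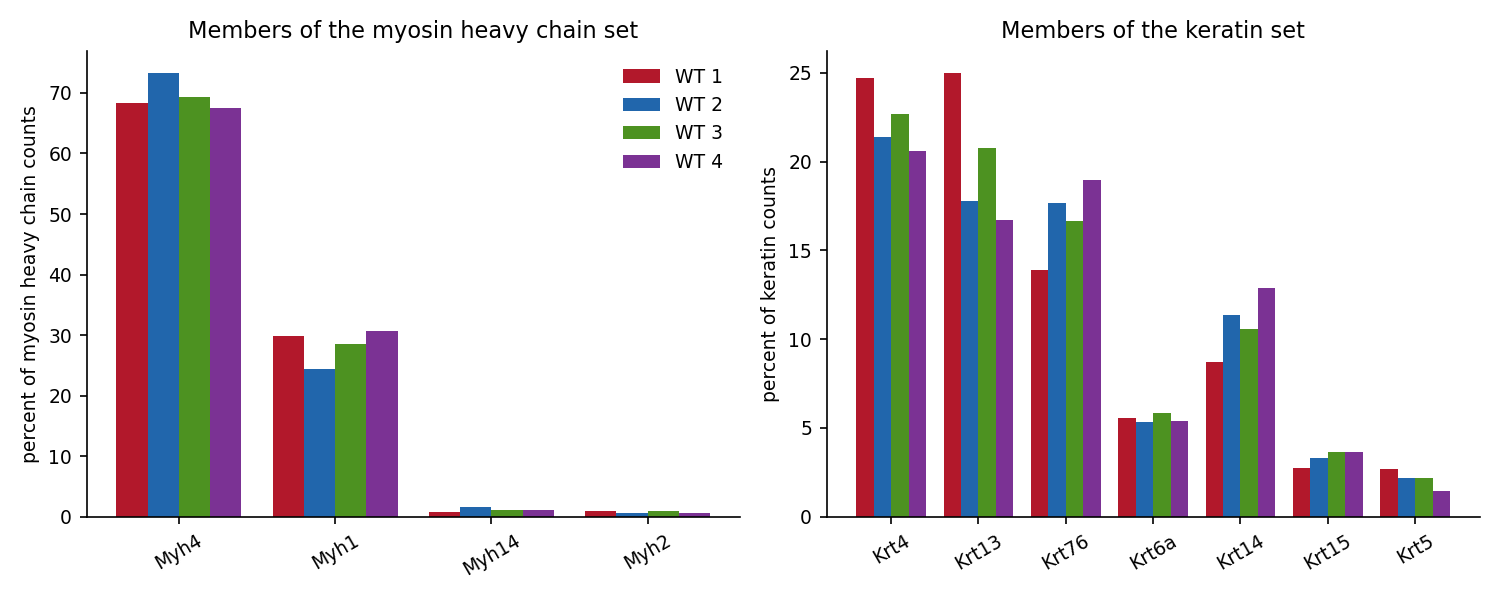
Percent of myosin heavy chain counts (left) and of keratin counts (right) held by single genes (x axis) in WT 1 to WT 4 (bars). Myh4 takes 67.5% to 73.3% and Myh1 24.4% to 30.7% of the heavy chain counts, and Krt13 takes 24.995% of the keratin counts in WT 1 against 16.7% to 20.8% in the other libraries.

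Basal genes had Dst (dystonin, which anchors keratin at hemidesmosomes and is also made in muscle and nerve) as their most abundant member, at 3591, 3710, 3402 and 3583 CPM with a spread ratio of 1.39. Krt14 had 998, 1571, 1227 and 1439 CPM, lowest in WT 1, and Krt15 had 400 ± 62.4 (SD, n = 4). Among envelope genes, Flg (filaggrin) had 465, 710, 671 and 958 CPM and Lor (loricrin), a main protein of the cornified envelope, had 163, 501, 312 and 530. WT 1 had the lowest value of Tchh, Flg and Lor. In that list 13 of 24 tested genes varied, and 7 of 21 without WT 1. With WT 1 the share was 54.2%, against 24.3% of all genes at the list's median level (30 to under 100 counts). Rptn (repetin), in contrast, had 2359, 2560, 2286 and 1891 CPM and was lowest in WT 4.

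Of desmosome genes, which rivet keratinocytes together, 10 of 14 varied, and 7 of 14 without WT 1. With WT 1 the share was 71.4%, against 24.3% of all genes at the list's median level (30 to under 100 counts). Dsp (desmoplakin) had 4067, 5416, 5259 and 4351 CPM, lower in WT 1 and WT 4 than in WT 2 and WT 3. Dsc1, a desmocollin of the uppermost layers, had 716, 851, 550 and 335 CPM, lowest in WT 4. Perp had 1507 ± 176 CPM and Dsc3, of lower layers, 581 ± 82.4 (SD, n = 4). Taste bud genes were at the limit of detection apart from Itpr3 (125 ± 30.1 CPM) and Car4 (16.0 ± 9.85), both also made outside taste buds. Trpm5, Gnat3 and Krt8 were not analysed here.

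Mitochondrial RNA, as far as it had rows in the count table, was mostly ribosomal. Only 8 of 13 mitochondrial messengers had a row, so these shares and the class shares above leave out the rest. mt-Rnr1 and mt-Rnr2, the small and large ribosomal RNA genes of the mitochondrion, together took 76.4%, 70.8%, 78.4% and 78.7% of the counts of the mitochondrial genome (76.1% ± 3.65, SD, n = 4). mt-Rnr1 had 31104, 16304, 21940 and 20025 CPM, highest in WT 1, while mt-Rnr2 had 18077, 13223, 19078 and 18177, lowest in WT 2. The ratio of mt-Rnr1 to mt-Rnr2 counts was therefore 1.72 in WT 1 and 1.23, 1.15 and 1.102 in WT 2 to 4. Per kilobase these RNAs led all named genes, at 23396 and 10834 CPM.

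The mitochondrial messenger RNAs with counts encode subunits of complex I, complex III and cytochrome oxidase. mt-Nd5 had 5213, 4043, 4118 and 3384 CPM, mt-Co1 3333, 2688, 2725 and 2513, and mt-Nd1 2254, 1887, 1641 and 1522. WT 1 was the highest library for these 3 and also for mt-Cytb, mt-Nd2 and mt-Nd6. mt-Nd4 had 1374, 1551, 1138 and 1420 CPM and was highest in WT 2. Of 13 such messengers in the genome 8 had a row in the table; mt-Nd3 had 1 count. All 7 tested messengers varied with WT 1, and 3 of them, mt-Nd5, mt-Nd4 and mt-Nd2, also varied without it. They had 100 or more counts, a level at which 56.1% of all genes varied with WT 1.

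Nuclear genes of oxidative phosphorylation took 1.07%, 0.948%, 0.873% and 0.914% of the counts in WT 1 to 4, highest in WT 1. Of 57 tested 14 varied (24.6%, against 12.6% of all genes), and 1 of 54 without WT 1. WT 1 was the farthest library for 11 of the 14. Atp5b, the catalytic subunit of ATP synthase, had 1766, 1732, 1860 and 2032 CPM, and Atp5a1 of the same complex had 1415 ± 104; neither passed. Sdha, of complex II, had 622 ± 28.1 CPM (SD, n = 4) with a spread ratio of 0.362. Atp5h, a subunit of ATP synthase, had 684, 367, 423 and 365, highest in WT 1. In the citrate cycle 6 of 21 genes varied (28.6%), against 24.3% of all genes with 30 to under 100 counts. The median of the citrate cycle genes was 34.75 counts. WT 1 was the farthest library for all 6, and for 49.0% of all genes that varied. Without WT 1, 0 of 21 passed the adjusted chi-square or the deviance test, and 2 had an unadjusted p under 0.05. Dld, a subunit shared by the ketoacid dehydrogenases, had 682, 975, 925 and 967 CPM, and Sucla2 had 840 ± 58.6. For fatty acid oxidation, Acadl had 451 ± 78.7 CPM, Cd36 192 ± 34.3 and Acsl1 209, 249, 102 and 185, lowest in WT 3.

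Some ribosomal protein genes varied among the last 3 libraries as well. Of 66 tested, 19 varied (28.8%, against 12.6% of all genes). Without WT 1, 12 of 63 varied, against 3.43% of all genes. The median level of the 82 genes of the list was 33.9 CPM. The 3 most abundant were Rpl21 with 432, 471, 340 and 331 CPM, Rpl26 with 510, 283, 238 and 146, and Rpl19 with 335, 357, 229 and 228. Rpl21 did not pass the test, and Rpl26 and Rpl19 passed only with WT 1 included. Of the 8 most abundant, Rpl12, Rps9, Rpl4 and Rps4x varied also without WT 1, and Rps4x had 271, 357, 121 and 190 CPM.

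Stromal genes varied about as often as all genes did. Of 74 tested, 11 varied (14.9%, against 12.6% of all genes), and 2 of 65 without WT 1. Among vessel genes 0 of 12 varied by the adjusted chi-square, 0 at an unadjusted p under 0.05 and 0 by the deviance test. Without WT 1, 1 of 12 had an unadjusted p under 0.05. The median spread ratio of vessel genes was 0.639, against 1.41 over all genes and 1.33 over genes with 10 to under 30 counts. Flt1 (a receptor of vascular growth factor) had 168, 168, 130 and 160 CPM, Tek 118 ± 16.9 and Kdr 77.6 ± 10.8 (SD, n = 4). The median of the 12 vessel genes was 18.1 counts per library, and 8.49% of all genes with 10 to under 30 counts varied. Smooth muscle genes had Myh11, the smooth muscle myosin, at 370, 404, 417 and 379 CPM with a spread ratio of 0.417, and Rgs5, of pericytes, at 445, 326, 267 and 272.

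Matrix genes were led by fibronectin. Fn1, which links cells to collagen, had 1475, 1833, 1895 and 2402 CPM, lowest in WT 1 and highest in WT 4. Bgn (biglycan, a small collagen-binding proteoglycan) had 202, 101, 118 and 301 CPM, highest in WT 4, and Tnxb (tenascin X) had 254, 616, 614 and 647, lowest in WT 1. Fn1 and Bgn were the matrix genes that also varied without WT 1. Among collagens Col14a1 had 177 ± 27.8 CPM, Col5a1 98.5 ± 42.4, Col1a1 90.3 ± 21.4 and Col4a2 65.5 ± 8.04 (SD, n = 4). Of 13 tested, 1 varied (7.69%, against 8.49% of all genes with 10 to under 30 counts), which was Col5a1 with 55.9, 80.7, 102 and 156 CPM, and without WT 1 0 of 12 passed the adjusted chi-square or the deviance test, with 2 at an unadjusted p under 0.05.

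Genes of fat, nerve and blood cells were mostly low. Lpl and Scd1, which act in fat cells and also in muscle or skin glands, had 210 ± 84.5 and 153 ± 58.4 CPM, while Adipoq, the defining fat cell gene, had 1 count in WT 3 and 0 elsewhere. Cdh19, of Schwann cells, had 64.3 ± 14.8 CPM and Mbp 34.1 ± 12.5 (SD, n = 4). Cd74, which carries antigen-presenting molecules, had 61.0 ± 9.16 CPM. The macrophage genes F13a1 and Cd163 had 44.9 ± 3.18 and 35.4 ± 12.7. Lyz2, a lysozyme of macrophages and some glands, had 284, 101, 60.4 and 82.6 CPM, highest in WT 1. Globin RNA was near the limit, with 6.78 ± 2.24 CPM of Hbb-bs.

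Long noncoding RNA was mostly Malat1 and Neat1. Malat1 (chr19:5795690-5802672, minus strand), a nuclear RNA of speckles, had 8591, 7511, 13342 and 12309 CPM, lower in WT 1 and WT 2 than in WT 3 and WT 4. Neat1, the scaffold of paraspeckles, had 1981, 2503, 2601 and 2484, lowest in WT 1. Xist, which coats the silenced X chromosome of female cells, had 989, 1325, 1087 and 1181 CPM. Kcnq1ot1 had 683 ± 103 CPM and the imprinted H19 158 ± 33.4 (SD, n = 4). Of 72 tested noncoding genes 12 varied (16.7%, against 12.6% of all genes), and 6 of 59 without WT 1. The 10 most abundant also held Gm49540 (272 ± 80.6 CPM), 1700020I14Rik (213 ± 81.9), Lncpint (149 ± 36.4), B230354K17Rik (147 ± 17.2) and Cct6a (103 ± 27.3), which the annotation used here lists as a processed transcript and not as protein-coding. Strand use in counting was not given in the sources used here, so reads of Gm49540 and other antisense genes cannot be told apart from those of the genes they overlap.

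Short noncoding genes were nearly absent from the counts, with 1 exception chosen after its values were seen. The microRNA gene Mir6236 (chr9:110281287-110281409, GRCm38) had 1032, 1100, 1335 and 1580 CPM, highest in WT 4, and it varied with and without WT 1. All 86 microRNA genes in the count table together took 0.134% ± 0.0256 of the counts (SD, n = 4), most of it from this gene. Its mature sequence from RefSeq (GRCm38.p6, chr9:110281353-110281371, plus strand) is printed because the reads were assigned to this locus, with the seed, bases 2 to 8, in capitals.
mmu-miR-6236: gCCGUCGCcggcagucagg
The assay primes on A-rich RNA, and the printed mature sequence holds no run of A. The counts are therefore not read as a level of the mature microRNA, and which RNA of the locus was read was not tested.

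Salivary gland genes were counted almost only in WT 1. The list took 0.203% of the counts in WT 1 and 0.00202%, 0.00127% and 0.000486% in WT 2 to 4, and without WT 1 its mean was 0.00126%. Lipf, the lipase of lingual serous glands, had 418 counts in WT 1 and 2, 0 and 0 in the others. Dmbt1, a mucosal scavenger protein, had 239 counts and Bpifb1, a secreted antimicrobial protein, had 188, each with 0 in WT 2 to 4. Amy1, salivary amylase, had 41 counts against 1, 1 and 0, and the mucin Muc5b had 36 against 0, 2 and 0. Outside the list, Sbpl (named for its spread ratio, chr17:23953084-23955274, minus strand) had 2252 counts in WT 1 and 1, 0 and 0 in the others, which is 4843 CPM in WT 1. With 2310057J18Rik (55, 0, 0 and 0 counts) these were the 7 genes with at least 20 counts in WT 1 and at most 2 in the other 3 libraries together, limits also set after the values were seen. They held 3229 counts or 0.694% of WT 1, and WT 2, WT 3 and WT 4 had 0 such genes each. Bpifa2 (4 counts), Dcpp1 (5) and Pigr (2), further genes of glands or secretory epithelium, also had their counts in WT 1 alone. Ltf had 0 counts everywhere, and Muc19, Smgc and Pip were not analysed here.
The promoter of Sbpl is printed because this gene showed the largest spread ratio of all, 1318 (RefSeq, GRCm38.p6, 5′ to 3′ on the gene's strand, TATAAA and CANNTG in capitals).
Sbpl, chr17:23955224-23955523, minus strand: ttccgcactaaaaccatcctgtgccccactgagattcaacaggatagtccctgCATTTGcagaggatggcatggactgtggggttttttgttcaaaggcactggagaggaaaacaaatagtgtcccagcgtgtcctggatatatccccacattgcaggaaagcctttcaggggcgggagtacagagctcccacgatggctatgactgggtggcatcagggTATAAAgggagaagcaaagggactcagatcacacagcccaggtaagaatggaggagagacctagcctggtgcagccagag
It held 1 match to TATAAA and 1 to CANNTG, counting both strands.

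Over all genes, those of glands included, WT 1 was the library farthest from its expected count for 400 of the 817 that varied. It was above in 180 and below in 220. WT 2 was farthest for 159, WT 3 for 126 and WT 4 for 132. Plec (plectin, a linker of keratin and desmin) had 837, 2213, 2681 and 2781 CPM, and Eif4g1 (a scaffold of translation initiation) had 1809, 2809, 3660 and 4200, both lowest in WT 1. Genes for which WT 1 was farthest below had a median transcript length of 5058 nt and a GC content of 51.2%, those farthest above had 3315 nt and 46.3%, and all tested genes had 4154 nt and 48.3%. Whether length, GC content, RNA quality or depth has a part in these differences was not tested. The common biological coefficient of variation (edgeR) was 0.221 over the 4 libraries and 0.151 without WT 1, and it was 0.222 to 0.243 when another library was left out.

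Among the genes with the smallest spread ratios, Ubr2, a ubiquitin ligase, had 185, 185, 188 and 190 CPM with a spread ratio of 0.00739. Zbtb20, a transcription repressor, had 1217, 1258, 1237 and 1240 CPM, and Nrd1, a protease, had 680, 706, 684 and 676. Heg1, Hivep1, Itsn2, Cdc37l1, Wwp1, Epb41l2 and Fbxo40 completed the 10 genes of 50 or more counts with the smallest spread ratios. As the extreme end of many genes they show less spread than counting error gives on average, and they are named as a description.

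**Figure D4:**
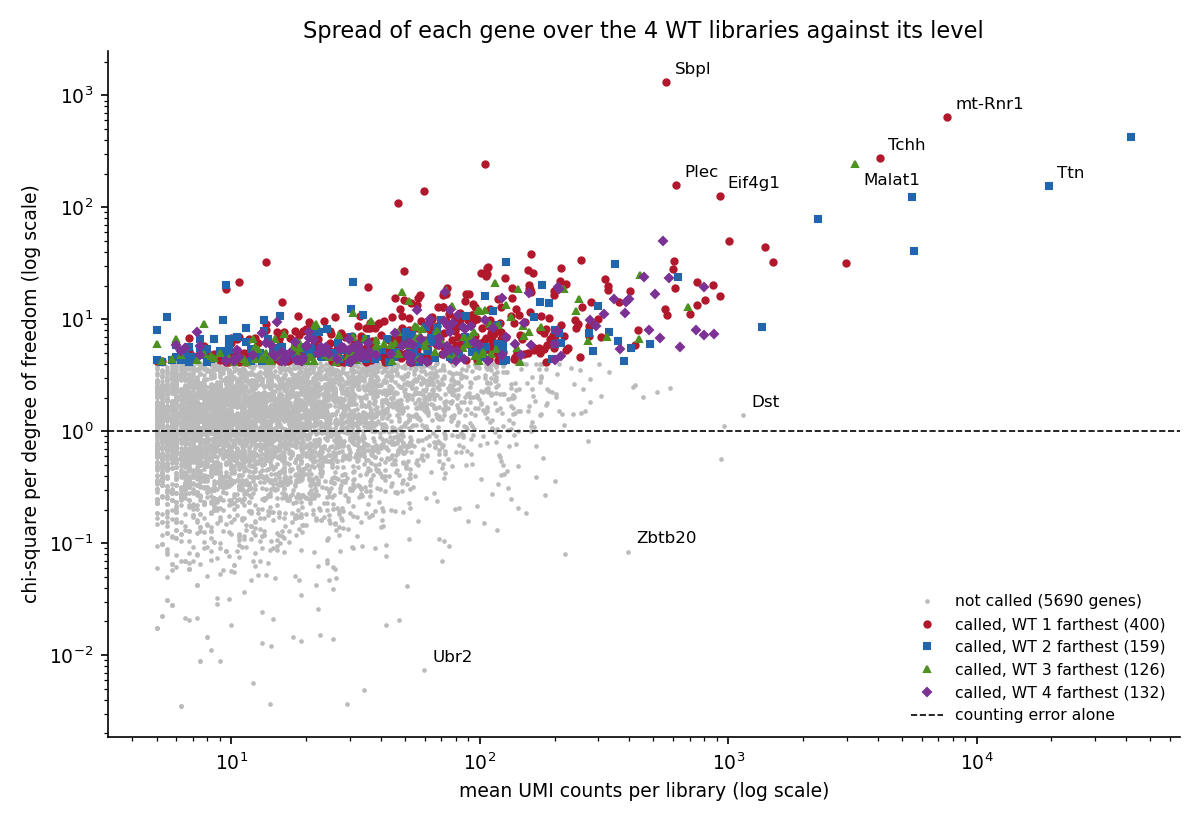
Spread ratio of each of 6507 genes over the 4 libraries (y axis, chi-square per degree of freedom, log scale) against its mean UMI count per library (x axis, log scale), with genes that varied coloured by the library farthest from expectation. The dashed line marks counting error alone. Sbpl lies highest at 1318, and abundant genes such as Dst and Zbtb20 lie near or below the line.

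Clock and early response genes were described as well, since time of day and handling can move them. Clock had 447 ± 46.4 CPM, Per3 227 ± 47.3, Nr1d2 275, 242, 137 and 175 and Tef 198 ± 37.0, and 3 of 11 clock genes varied. The share was 27.3%, against 8.49% of all genes at the list's median level (10 to under 30 counts). Jun had 90.1 ± 17.3 CPM and Fos 2.17 (SD, n = 4). Junb had 8.60, 53.8, 19.1 and 19.4 CPM, highest in WT 2, where leaving out WT 2 gave a mean of 15.7 in place of 25.2. Pabpn1 itself, the gene altered in the A17/+ mice, had 32.3, 13.5, 19.1 and 29.2 CPM, from a mean of 7.75 counts per library, and it did not pass the test.

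Long transcripts carried much of the RNA counted. Protein-coding genes whose longest transcript has 16000 nt or more were 0.248% of those with counts and took 11.5%, 9.57%, 10.5% and 11.2% of their counts in WT 1 to 4 (10.7% ± 0.868, SD, n = 4). Ttn accounted for most of it, and without Ttn the class took 3.00%. Transcripts from 4000 to under 8000 nt took 38.3%, and those under 1000 nt 2.19% (2.94% in WT 1 and 1.82% to 2.12% in the others). Over 13724 protein-coding genes, Spearman's rho of mean CPM was 0.333 with transcript length, 0.151 with the number of A-rich stretches and -0.157 with GC content. These are descriptions across genes of the same libraries.

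**Figure D5:**
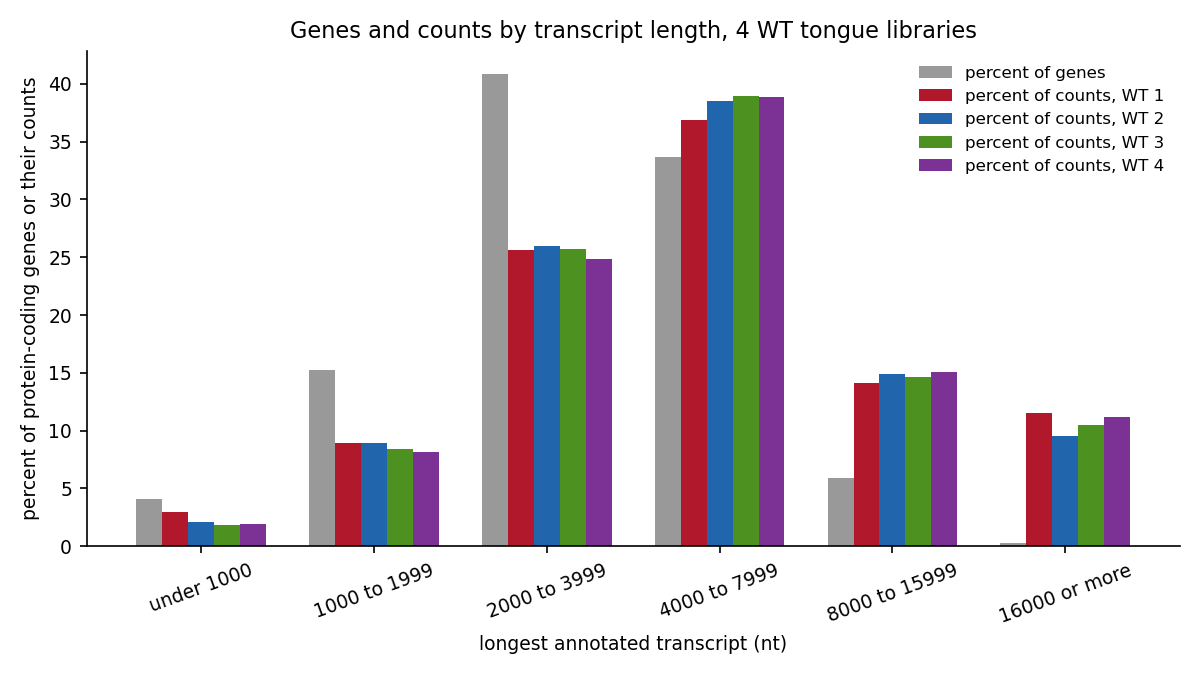
Percent of protein-coding genes (grey) and of their UMI counts in WT 1 to WT 4 (coloured bars) by length of the longest annotated transcript in nt (x axis). Genes from 2000 to under 4000 nt are the most numerous at 40.8% and take 25.5% of the counts, and the 0.248% of genes with 16000 nt or more take 9.57% to 11.5%.

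A-rich stretches were counted because the assay primes with oligo(dT), defined as windows of 20 nt with at least 15 A outside the last 50 nt of the longest transcript. The following examples come from the most abundant long gene and from a mitochondrial ribosomal RNA. Each is the 60 bases with the most A within 1 exon (of the coding sequence for Ttn), 5′ to 3′ on the gene's strand. Runs of 5 or more A are in capitals.
Ttn, coding exon 203, chr2:76817797-76817856, minus strand: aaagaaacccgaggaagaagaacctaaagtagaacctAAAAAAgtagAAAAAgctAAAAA
mt-Rnr2, chrM:1454-1513, plus strand: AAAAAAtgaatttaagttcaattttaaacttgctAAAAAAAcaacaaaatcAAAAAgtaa
By the definition above, Ttn held 2 A-rich stretches in 106824 nt and mt-Rnr2 held 1 in 1582 nt. The printed Ttn bases hold no window of 20 nt with at least 15 A, whereas the printed mt-Rnr2 bases do. Within length classes the difference in level with the number of stretches had no single direction. Among genes from 2000 to under 4000 nt the median was 9.79 CPM with 0 stretches and 11.3 with 3 or more. Among genes from 4000 to under 8000 nt it was 20.1, 21.3, 24.5 and 24.7 with 0, 1, 2 and 3 or more, and among genes from 8000 to under 16000 nt it was 57.2 with 0 and 50.6 with 3 or more. Where priming took place was not tested.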

How the data were processed

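RNA of 4 WT tongues was measured with mcSCRB-seq, an oligo(dT)-primed assay that counts molecules by a unique molecular identifier (UMI). Per the submitters' processing notes, cutadapt 2.10, STAR 2.7.5a, UMI-tools 1.1.1, HTSeq and the build mm10 were used; settings, strand and annotation release were not given in the sources used here. The authors deposited raw counts per gene, which were analysed, and log2 values per library for 10709 genes, which were used as an alternative only. Library totals ran from 205696 to 465014, and intervals from counts cover counting error only.

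Of 19857 genes, 19677 matched GENCODE M21 (GRCm38, the build mm10 names), and 180 did not. CPM used the library total. Spread was tested by Pearson chi-square (scipy 1.17.1, 3 degrees of freedom) with Benjamini-Hochberg adjustment over genes with a mean of 5 or more counts, at 0.05, and checked on simulated counts. Dispersion came from edgeR 4.0.16 with an intercept only in R 4.3.3. The labels give 4 mice, 1 library each, so that animal and library effects cannot be told apart. Alternatives were TMM, DESeq2 1.42.0 size factors, other filters, a deviance test, other totals, thinning to the smallest library, the authors' log2 values and leaving out each library; shares per kilobase, without Ttn and without Tchh were added after the data were seen.

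The members and the 38 gene lists (492 of 553 genes in the table) were chosen with earlier results of these data known. Named genes are the 20 highest in CPM, the 4 highest of each list with a mean of 5 counts (8 of the myosin, upper keratin and mitochondrial messenger lists), or else its 2 highest, the 10 with the largest spread ratio, the 10 of 50 or more counts with the smallest, the 10 highest long noncoding genes, and list members at 0; a few of these are not reported here. Other genes named as further list members, or as leading ribosomal protein and oxidative phosphorylation genes, were chosen after their values were seen. Coordinates are GRCm38; promoter and microRNA sequences are from RefSeq (GRCm38.p6).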

Additional observations from a re-analysis of the deposited data

Results flagged for a closer look

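A test for 1 library far from the other 3 was applied to 173 measures, and 11 stood out, 10 with WT 1 as the distant library and 1 with WT 3. The test compares the gap between the extreme library and its nearest neighbour with the whole range, and chance alone marks about 1 in 20 groups of values. At that rate, 11 of 173 is near the number that chance alone would mark. Sbpl, Lipf and Dmbt1 were named for their large spread ratios in these same values, so their flags are no separate support. The gap as a fraction of the range was 0.992 for the share of salivary gland genes, where WT 1 had 0.203%. Among single gland genes it was 1 for Dmbt1 and Bpifb1, 0.993 for Lipf and 0.962 for Amy1, and for Sbpl, outside that list, 0.999, all far higher in WT 1. For the muscle genes Neb and Xirp2, it was 0.833 and 0.886, with WT 1 the highest at 10428 and 3172 CPM. For Tnxb and Dld it was 0.916 and 0.8292, with WT 1 the lowest at 254 and 682 CPM. For Epb41l2 it was 0.971, with WT 3 at 226 CPM against 209 CPM in each of the others, a gap well inside counting error (spread ratio 0.109).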

How the results depend on the processing

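Under the alternatives, 110 of 131 values of the 16 main measures moved by less than the spread between libraries (for counts of genes that varied, by at most 1.5 times). These measures have no sign, so none could reverse. Leaving out 1 of 4 libraries cannot move a mean by the SD between them. For measures that are means over libraries, those values therefore could not count as moved. For the salivary share this bar is set by WT 1 itself: it was 0.0517% over 4 libraries and 0.00126% without WT 1, a change that passes as small only because the SD (0.101) comes from that library. Taking the most abundant identifier out of the total gave 16.5% for muscle, 5.64% for epithelium, 1.05% for stroma, 2.39% for long noncoding RNA, 1.09% for oxidative phosphorylation and 18.7% for the top 10 genes, and taking out mitochondrial RNA gave 0.957% for stroma. Scaled per kilobase of transcript, the shares were 9.58% for muscle, 0.777% for stroma, 16.2% for mitochondria, 1.91% for ribosomal proteins and 2.23% for oxidative phosphorylation, with 0.338% slow troponin and 81.4% upper-layer keratin. Muscle without Ttn took 8.29%, and epithelium without Tchh 3.55%. Thinned counts gave 0.538% slow troponin. With at least 3 counts, 8437 genes were detected. The number of genes that varied was 817; it was 458 at an adjusted p under 0.01, 392 after thinning, and 203 to 678 with 1 library left out, the lowest without WT 1. The no-filter and deviance settings gave 621 and 889. Depth limits genes near the level that 0 counts allow, 6.45 to 14.6 CPM by library. Of levels of named genes, 0 of 164 moved with TMM and 7 of 159 with the authors' log2 values, where Hbb-bs (12.2) and Alas2 (12.3) shifted by over 1.5 times. Without WT 1, Sbpl, Lipf, Amy1, Dmbt1 and Bpifb1 stood at 1.12, 2.24, 2.18, 0 and 0 CPM, and Lyz2 at 81.3; Junb without WT 2 stood at 15.7. Comp without WT 4 (1.12 CPM) and Rny1 without WT 3 (0) rest on 0 or 1 count a library. No paired analysis was possible because only 1 group was described, so equal replicate numbers in the labels had no counterpart to pair with.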
